A study of Rattus norvegicus with 6 samples.

Results

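The insulin-like growth factor (IGF) family was followed through 9 genes: the ligands Igf1 and Igf2, the receptors Igf1r and Igf2r, and the binding proteins Igfbp2, Igfbp3, Igfbp4, Igfbp5 and Igfbp6. Its members were all probe sets whose platform annotation gave exactly 1 gene symbol equal to one of these names, taken by name without regard to their values. This gave 22 of the 31042 probe sets other than controls, and 9 of the 14217 genes that have such a probe set. A probe set is the group of short probes on the array that reads out a transcript, and its signal is an intensity in arbitrary units.

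RNA came from 6 cultures of UMR106-01, a clonal line from a rat osteosarcoma that serves as an osteoblast model, osteoblasts being the cells that build bone. All 6 were grown in medium with 10% fetal bovine serum, which brings growth factors of its own, and at 64 h after plating had their medium replaced by one with 6.5 mM beta-glycerol phosphate, from which cells release phosphate for mineral. In 3 of them, the AEBSF cultures, that medium also held 400 µM AEBSF, a compound that inactivates serine proteases irreversibly and that the title of the series calls a mineralization inhibitor; the other 3, the mineralizing cultures, had none. RNA was taken at 76 h, after 12 h of exposure, and each culture gave 1 array. The labels do not say whether the cultures of a group were set up independently, so p-values measure the spread between these samples, which may be technical.

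IGF1 and IGF2 are secreted peptides that act through the IGF1 receptor, a tyrosine kinase that passes its signal through insulin receptor substrates to the PI3-kinase and AKT arm and to the RAS and MAP kinase arm. The IGF2 receptor, also the large mannose 6-phosphate receptor, carries no kinase and takes IGF2 to lysosomes. The binding proteins hold IGFs in the extracellular space and are cut by proteases, which frees the ligand. In bone, osteoblasts make IGFs and several binding proteins and store IGFs in the matrix.

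With AEBSF, transcripts of 3 family genes were lower and none was higher. The binding protein genes Igfbp2 and Igfbp5 fell 1.42-fold and 1.33-fold, and the receptor gene Igf1r fell 1.24-fold on the brighter of its 2 probe sets. Igf2 and Igfbp4 were bright enough to be tested and did not pass, and Igf1, Igf2r, Igfbp3 and Igfbp6 were too dim to be tested. The 3 calls were made by limma at an adjusted p of 0.05 among 5 tested members. Over all 9864 tested genes 16.3% passed, 9.22% lower and 7.09% higher. With 5 tested members the count is small, and it was 0 without mineralizing culture 1 and 1 without mineralizing culture 3. It was 1 with a constant variance prior and 1 when a gene's probe sets, dim ones included, were averaged, where 4 members were tested. Without mineralizing culture 1, 3 members had an unadjusted p under 0.05 in limma, as did 4340 of all 18625 tested probe sets.

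The cultures were set against cell type markers. Of 8 measured osteoblast markers, 7 lay above the signal limit on all 6 arrays, with the bone sialoprotein gene Ibsp between 15661 and 17285, while the osteocalcin gene Bglap lay between 1.41 and 7.46 and neither Runx2 nor Sp7 was analysed here. Of these markers 3 were lower with AEBSF and none was higher. The type I collagen genes Col1a2 and Col1a1 had log2 changes of -1.13 and -0.67 (limma adjusted p = 1.27e-05 and 0.00116), and Phex, an endopeptidase gene of osteoblasts and osteocytes, one of -0.73 (3.36e-05), each larger than any change called in the IGF family. Ibsp, Alpl, Spp1 and Pth1r did not pass, with log2 changes of 0.05, -0.05, -0.17 and -0.12. The summed signal of the 8 ran from 27910 to 29255 in the mineralizing cultures and from 25374 to 26296 with AEBSF. The part of this shift in the family's values was not tested. The limit, a signal of 67.2, is the 40th percentile of the mean log2 signals, and only probe sets with a mean above it were tested. Of 24 markers of adipocytes, macrophages and osteoclasts, muscle, endothelium and chondrocytes, only Csf1r lay above the limit on all 6 arrays, and 0 of the 2 tested passed in limma (0 with an unadjusted p under 0.05). Of 15 measured genes that are restricted to tissues such as liver, pancreas, brain and pituitary, 3 lay above the limit on all 6 arrays, the highest being Mbp with signals up to 267. A signal between 67.2 and 267 is therefore within the range that transcripts not known from osteosarcoma cells gave on these arrays. Arrays were scaled to equal overall level, and in such bulk RNA fewer cells and less RNA per cell cannot be told apart.

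By this measure 5 of the 9 family genes were detected on all 6 arrays: Igf2, Igf1r, Igfbp2, Igfbp4 and Igfbp5. Of these, 4 also lay above 267 on all 6 arrays, the exception being Igfbp4. The same 5 had a mean above the limit and were tested, as were 9864 of all 14217 genes. Igf2r lay at the limit, above it on 3 of 6 arrays, and Igf1, Igfbp3 and Igfbp6 lay below it on at least 5 of 6. Signals of different probe sets are not compared as amounts of RNA, since each binds its target with its own strength.

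**Figure D1:**
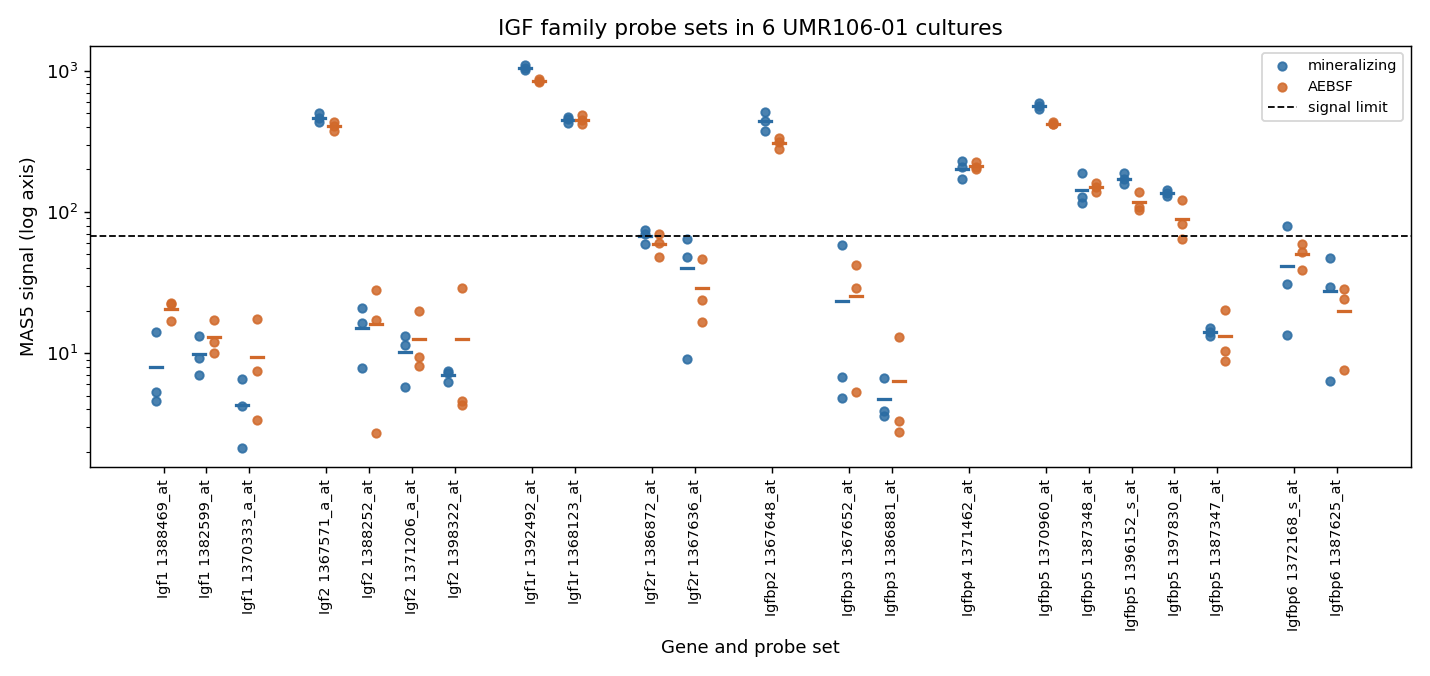
Signal of each of the 22 family probe sets (horizontal axis, by gene) on a log axis, with 1 point per culture, a short bar at the mean of the 3 cultures of a group, mineralizing in blue and AEBSF in orange, and a dashed line at the limit of 67.2. All points of Igf1, Igfbp3 and of 3 of the 4 Igf2 probe sets lie below the line, while the brightest probe sets of Igf1r, Igf2, Igfbp2 and Igfbp5 lie well above it.

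Igf1, the ligand through which growth hormone acts on bone, was dim on all 3 of its probe sets. The brightest of them gave 5.28, 14.1 and 4.56 in the mineralizing cultures and 16.9, 22.2 and 22.8 with AEBSF. The groups did not overlap, but all 6 values lay below 67.2. Its other probe sets ranged from 2.14 to 17.4 and their groups overlapped. When the limit was dropped and all probe sets were tested, Igf1 had a log2 fold change of 1.55 that did not pass (limma adjusted p = 0.238).

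Igf2, a fetal growth factor and the more abundant IGF of bone matrix in man, gave 502, 461 and 434 in the mineralizing cultures and 430, 403 and 375 with AEBSF on its brightest probe set. Each AEBSF value lay below each mineralizing value, with means of 466 ± 34.0 and 403 ± 27.7 (SD, n = 3 cultures each). The difference did not pass (log2 change -0.21 with SE 0.10, 95% interval -0.43 to 0.01, limma adjusted p = 0.194). Detection of Igf2 rests on this probe set alone, since its other 3, all designed from the same sequence record, ranged from 2.74 to 29.1 on the 6 arrays. H19, the RNA gene imprinted opposite to Igf2, lay between 28.7 and 74.2 and was not tested.

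Igf1r, the signalling receptor, had 2 bright probe sets that differed in what they showed. The brighter gave 1053, 1006 and 1096 in the mineralizing cultures and 844, 877 and 825 with AEBSF, with no overlap. It fell from 1052 ± 44.9 to 849 ± 26.1 (SD, n = 3 cultures each; log2 change -0.31 with SE 0.07, limma adjusted p = 0.0133). The other gave 471, 427 and 454 without and 444, 485 and 422 with AEBSF. Its groups overlapped, and its log2 fold change had a 95% interval of -0.21 to 0.20 (limma adjusted p = 0.987). The ratio of the 2 probe sets within an array differed between the groups by 0.31 on the log2 scale (exact permutation test over the 6 arrays, two-sided, p = 0.10, the smallest that 3 arrays against 3 can give; 0.4 adjusted over the 4 such probe set comparisons of the family). Averaged over both probe sets Igf1r had a log2 change of -0.16 that did not pass (limma adjusted p = 0.198). The call on the brighter probe set was also lost without mineralizing culture 1 or 3 (limma adjusted p = 0.0551 and 0.0574) and with a constant variance prior (0.0573).

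Igf2r gave 74.8, 69.5 and 59.5 in the mineralizing cultures and 69.6, 48.0 and 59.9 with AEBSF on its brighter probe set. The groups overlapped, and with a mean below the limit the gene was not tested. Its other probe set ranged from 9.16 to 63.8.

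Igfbp2, a binding protein with a higher affinity for IGF2 than for IGF1, had the largest of the 3 falls. Its only probe set gave 507, 375 and 443 in the mineralizing cultures and 312, 334 and 280 with AEBSF. The groups did not overlap, though the lowest mineralizing value, of culture 2, stood near the highest AEBSF value, also of culture 2. The mean went from 442 ± 65.9 to 309 ± 26.9 (SD, n = 3 cultures each; log2 change -0.51 with SE 0.13, limma adjusted p = 0.0221). This call was lost without mineralizing culture 1 or 3 (limma adjusted p = 0.101 and 0.0639) and with a constant variance prior (0.0755). It was also lost without AEBSF culture 1 or 3 (limma adjusted p = 0.0511 and 0.0589). Without these cultures the log2 change was -0.40 and -0.50 (mineralizing 1 and 3) and -0.52 and -0.44 (AEBSF 1 and 3). Such fits have fewer arrays, and the part of this in the losses was not tested.

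Igfbp5, the binding protein that adheres to bone matrix and hydroxyapatite, fell on its brightest probe set. That probe set gave 587, 561 and 535 in the mineralizing cultures and 419, 431 and 418 with AEBSF, with no overlap. It fell from 561 ± 25.8 to 423 ± 7.17 (SD, n = 3 cultures each; log2 change -0.41 with SE 0.09, limma adjusted p = 0.0107). Of its 4 other probe sets, 3 were tested and none passed. A probe set with the suffix _s_at, whose probes can match more than 1 transcript, gave 170, 190 and 157 without and 139, 103 and 109 with AEBSF (log2 change -0.57 with SE 0.18, limma adjusted p = 0.056). Its groups did not overlap, and a probe set designed from the same sequence record gave -0.66 on the log2 scale (SE 0.24, limma adjusted p = 0.0908). The remaining tested probe set, at 116, 128 and 188 without and 139, 160 and 149 with AEBSF, had overlapping groups and a 95% interval of -0.35 to 0.51. The fifth ranged from 8.75 to 20.2. Averaged over all 5 probe sets, Igfbp5 had a log2 fold change of -0.35 that did not pass (limma adjusted p = 0.212), and the call was also lost without mineralizing culture 1 (0.0582).

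Igfbp4, which in most systems holds IGFs away from their receptor, gave 208, 228 and 170 in the mineralizing cultures and 209, 224 and 202 with AEBSF. The groups overlapped, and the log2 fold change of 0.08 had a 95% interval of -0.25 to 0.40 (limma adjusted p = 0.782). The sign of this small difference turned with the arrays scaled to their hybridization controls (-0.07), a scaling that moves the median of all genes to -0.14, and without mineralizing culture 3 (-0.04).

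Igfbp3, the main IGF carrier of blood, and Igfbp6, which prefers IGF2, were dim. The brighter Igfbp3 probe set gave 6.75, 4.85 and 58.4 in the mineralizing cultures and 28.8, 42.4 and 5.29 with AEBSF, and the other ranged from 2.77 to 13.1. The brighter Igfbp6 probe set gave 13.4, 80.1 and 31.1 without and 52.0, 59.3 and 38.9 with AEBSF. In both genes the groups overlapped and the spread between cultures was wider than the difference of the means, and neither was tested.

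Among the 9 tested probe sets of the family 3 passed, all lower with AEBSF, against 13.4% of all 18625 tested probe sets, 7.41% lower and 5.99% higher. The groups did not overlap in 4 of the 5 tested genes, Igf2 included, against 36.1% of all tested genes. The median log2 fold change of the 5 was -0.31, beside 0.00 for all tested genes.

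**Figure D2:**
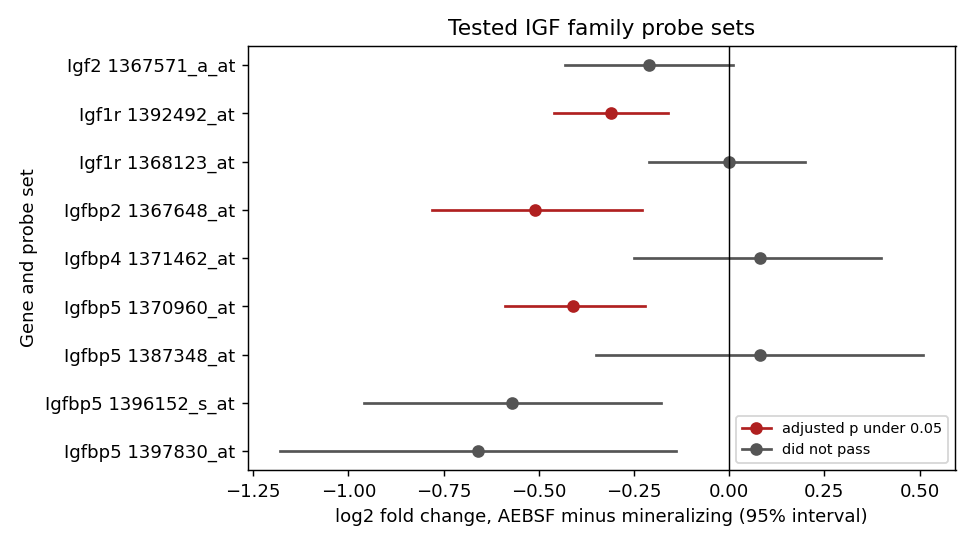
Log2 fold change (horizontal axis, AEBSF minus mineralizing, points) with its 95% interval from limma (lines) for the 9 tested family probe sets (vertical axis), in red where the adjusted p was under 0.05. Igf1r, Igfbp2 and Igfbp5 each have a red point below 0, at -0.31, -0.51 and -0.41, while other probe sets of Igf1r and Igfbp5 have intervals that span 0.

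Igfbp2 and Igfbp5 are neighbours on rat chromosome 9. In the RefSeq gene order of assembly GRCr8 no other protein-coding gene lies between them, and they are on opposite strands, with Igfbp2 on the plus strand and Igfbp5 after it on the minus strand, so that they are transcribed towards each other. The flanking gene Rpl37a, on the Igfbp2 side, stood at 21728 and 23678 (log2 change 0.12 with SE 0.07, limma adjusted p = 0.299), and Smarcal1 beyond it at 787 and 821 (0.06, SE 0.07, limma adjusted p = 0.605). On the Igfbp5 side Tnp1, a sperm gene, had mean signals of 1.78 and 7.1 and was not tested. The neighbours were looked up after the values were seen.

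The 250 bases before the transcription starts of Igfbp2 and Igfbp5 are shown because these neighbours both fell; they are from RefSeq, assembly GRCr8, 5′ to 3′, with matches to the motifs searched in capitals. The start given for Igf1r lies inside the span of the gene in the same annotation, so its window is described and not printed.
Igfbp2 chr9:81864561-81864810 (plus strand): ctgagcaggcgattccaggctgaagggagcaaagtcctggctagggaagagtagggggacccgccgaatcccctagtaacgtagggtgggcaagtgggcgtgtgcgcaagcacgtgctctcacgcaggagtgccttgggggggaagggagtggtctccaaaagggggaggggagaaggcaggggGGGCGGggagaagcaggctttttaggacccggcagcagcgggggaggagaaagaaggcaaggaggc
Igfbp5 chr9:81914188-81914437 (minus strand): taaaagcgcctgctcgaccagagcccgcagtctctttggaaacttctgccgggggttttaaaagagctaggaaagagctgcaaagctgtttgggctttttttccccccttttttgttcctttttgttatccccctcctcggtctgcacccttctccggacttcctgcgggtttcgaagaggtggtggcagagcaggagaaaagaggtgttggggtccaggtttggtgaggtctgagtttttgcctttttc
The motifs, searched on both strands, were the core promoter element TATAAA, the Sp1 site GGGCGG, known as the GC box, the NF-Y site CCAAT and the core of the cAMP response element, TGACG; none of these contains another. All 9 family genes had an entry in the promoter table. The GC box, which 30.5% of the 33469 RefSeq promoters of this length hold, occurred 1 time in the windows of Igf1r and Igfbp2, which fell, 1 time in 1 of the 2 windows of Igf2, which did not pass, and 2 times in that of Igf2r, which was not tested. The Igfbp5 window held none of the 4 motifs. TATAAA, found in 12.9% of all promoters, occurred among the 9 family genes only in that of Igfbp4. No window of the family held CCAAT, which 34% of all promoters hold, and TGACG, in 18.2% of all, occurred only in that of Igf2r. The bases G and C made up 79.6% of the Igf1r window, 64% of that of Igfbp2 and 51.6% of that of Igfbp5, beside a median of 51.2% over all promoters.

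The genes whose pattern over the 6 arrays was most like that of Igfbp2 were Oacyl, Clybl and Tmcc3, by the root mean square difference of log2 signal after centring each gene on its own mean, which was 0.0643, 0.0715 and 0.0760 among 9863 genes compared. Their own differences did not pass, with log2 fold changes of -0.51, -0.45 and -0.47 and limma adjusted p = 0.101, 0.099 and 0.0583. Their signals ran from 88.0 to 159, 127 to 216 and 146 to 239. All lay between 67.2 and 267, the range that tissue-restricted transcripts also gave.

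Around the family, 129 genes of the IGF pathway were listed in 7 groups, of which 93 were tested, 19 lay below the limit and 17 were not analysed here. Of the 93, 3 rose, 4 fell and 86 did not pass, so that 7.53% were called against 16.3% of all tested genes. Their median log2 fold change was 0.01. The count of 7 was 2 without mineralizing culture 1, 2 without mineralizing culture 2, 3 without mineralizing culture 3 and 3 without AEBSF culture 2. It was 4 with no filter, 0 higher and 4 lower, and 0 in limma with a constant variance prior. With that prior 16 of the 93 had an unadjusted p under 0.05 in limma, beside 4800 of all 18625 tested probe sets. With the arrays scaled to hybridization controls, which moved the median of all genes to -0.14 and the split of called probe sets from 1115 higher and 1380 lower to 119 and 2457, 13 pathway genes were called, 0 higher and 13 lower.

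Among relatives of the binding proteins, other carriers and the insulin genes, 0 of 6 tested genes passed in limma. Of the 6, 3 had an unadjusted p under 0.05 in limma, all lower. So did 3142 of all 9864 tested genes, 1637 of them lower. The 3 were Ccn1, Ccn2 and Ccn3 of the CCN family, with log2 changes of -0.28, -0.24 and -0.42 (limma adjusted p = 0.0553, 0.114 and 0.0908). The median log2 fold change of the 6 was -0.26. One of the 6 was Ins1, an insulin gene that is also among the tissue-restricted genes, at signals of 40.8 to 145. Igfbp7, a secreted relative that binds IGFs weakly, gave 940, 989 and 1018 without and 896, 922 and 879 with AEBSF (log2 change -0.13 with SE 0.07, limma adjusted p = 0.24). Ccn4, a matricellular protein of the CCN family, stood at 4793 ± 81.8 and 4841 ± 146 (SD, n = 3 cultures each). Igfbp1, the binding protein of liver, lay between 3.46 and 16.1, and Igfals, the partner of Igfbp3 in blood, between 2.50 and 9.66; neither was tested.

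Among proteases that cut IGF-binding proteins and the inhibitors that act on them, 1 of 14 tested genes fell and 0 rose. The share called was 7.14%, against 16.3% of all tested genes. The gene that fell was Stc1, for stanniocalcin, a secreted glycoprotein that inhibits the IGFBP protease PAPP-A. Stc1 gave 652, 693 and 793 in the mineralizing cultures and 575, 531 and 498 with AEBSF, with no overlap (log2 change -0.41 with SE 0.10, limma adjusted p = 0.0163). A second Stc1 probe set fell as well (log2 change -0.43 with SE 0.10, limma adjusted p = 0.0197), and the third did not pass (-0.27, SE 0.21). The call was lost without mineralizing culture 3 (limma adjusted p = 0.0676) and with a constant variance prior (0.0687). Its relative Stc2, which also inhibits PAPP-A, gave 221, 210 and 131 without and 271, 241 and 219 with AEBSF, with overlapping groups (log2 change 0.41 with SE 0.19, limma adjusted p = 0.19). Ctsb, the lysosomal protease cathepsin B, had a log2 fold change of -0.17 (SE 0.05, limma adjusted p = 0.0558), and Pappa was not analysed here.

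Among proteins that bind Igf2 RNA and genes of mannose 6-phosphate sorting, 1 of 11 tested genes rose and 0 fell. The share called was 9.09%, against 16.3% of all tested genes. Of the 11, 5 had an unadjusted p under 0.05 in limma, 4 higher and 1 lower. So did 3142 of all 9864 tested genes, 1505 higher and 1637 lower. The median log2 fold change of the 11 was 0.16. Gga1, a sorting gene, narrowly missed the threshold (log2 change 0.27 with SE 0.08, limma adjusted p = 0.0521). M6pr, the small mannose 6-phosphate receptor, gave 8053, 8186 and 8548 without and 9475, 9003 and 9482 with AEBSF, with no overlap (log2 change 0.17 with SE 0.05, limma adjusted p = 0.0432). This call was lost without each of mineralizing cultures 1 and 2 and AEBSF cultures 1, 2 and 3 (limma adjusted p = 0.13, 0.148, 0.123, 0.0503 and 0.103), and after quantile normalization, median centring and hybridization control scaling (0.0616, 0.135 and 0.875), with no filter (0.0869) and with a constant variance prior (0.162). The RNA-binding proteins Igf2bp2 and Igf2bp3 were detected on all 6 arrays, at 2461 ± 65.9 and 2384 ± 47.1 and at 883 ± 31.1 and 916 ± 69.2, and Igf2bp1 gave 120 ± 23.2 and 150 ± 10.8 (SD, n = 3 cultures each). None of the 3 passed (limma adjusted p = 0.618, 0.699 and 0.259).

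Among the insulin receptor and proximal adaptors, 2 of 13 tested genes fell and 1 rose. The share called was 23.1%, against 16.3% of all tested genes, 9.22% lower and 7.09% higher. Irs1, a docking protein that the IGF1 receptor phosphorylates, gave 542, 493 and 483 in the mineralizing cultures and 410, 406 and 367 with AEBSF, with no overlap (log2 change -0.36 with SE 0.10, limma adjusted p = 0.0292). Grb14, an adaptor that binds the insulin receptor and dampens it, gave 963, 899 and 944 without and 834, 713 and 652 with AEBSF (log2 change -0.36 with SE 0.09, limma adjusted p = 0.0242). Ptpn11, the phosphatase SHP2, rose, from 2797, 2524 and 3187 to 3124, 3798 and 3553, with overlapping groups (log2 change 0.30 with SE 0.09, limma adjusted p = 0.0434). Irs2 and the insulin receptor gene Insr did not pass (log2 fold change -0.01 and -0.11, SE 0.11 and 0.08).

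These calls were also lost in fits without 1 culture, which have fewer arrays. In the fits without 1 culture the log2 change ran from -0.39 to -0.31 for Irs1 and from -0.46 to -0.28 for Grb14. For Ptpn11 it ran from 0.22 to 0.39. Leaving out mineralizing culture 1, 2 or 3, or AEBSF culture 3, ended the Irs1 call (limma adjusted p = 0.126, 0.0748, 0.0544 and 0.07), and leaving out mineralizing culture 1, 2 or 3, or AEBSF culture 2 or 3, that of Grb14 (0.09, 0.0532, 0.0716, 0.0575 and 0.0594). A constant variance prior ended both (0.0604 and 0.0955). For Ptpn11 it ended when mineralizing culture 1 or 2, or AEBSF culture 2 or 3, was left out (limma adjusted p = 0.115, 0.163, 0.126 and 0.0944), with hybridization control scaling (0.352), with no filter (0.0908), with a constant variance prior (0.168) and when its probe sets were averaged (0.0517).

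In the PI3-kinase, AKT and mTOR arm, 1 of 24 tested genes rose and 0 fell. The share called was 4.17%, against 16.3% of all tested genes. Inppl1, the lipid phosphatase SHIP2, gave 1710, 1823 and 1689 without and 1920, 2079 and 2086 with AEBSF (log2 change 0.22 with SE 0.06, limma adjusted p = 0.034), and its second probe set did not pass (0.21, SE 0.08, limma adjusted p = 0.117). Leaving out mineralizing culture 1, 2 or 3, or AEBSF culture 2 or 3, ended the Inppl1 call (limma adjusted p = 0.116, 0.0577, 0.108, 0.0821 and 0.074), as did median centring, hybridization control scaling, no filter and a constant variance prior (0.0586, 0.667, 0.0577 and 0.122). Akt1, Foxo1, a transcription factor that AKT inactivates, and Rheb, which activates mTOR, did not pass, with log2 fold changes of 0.05, 0.01 and 0.07.

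In the RAS and MAP kinase arm, 1 of 12 tested genes fell and 0 rose, and 8 were not analysed here. The share called was 8.33%, against 16.3% of all tested genes. Araf, a kinase of the RAF family, gave 579, 471 and 590 in the mineralizing cultures and 346, 407 and 373 with AEBSF, with no overlap (log2 change -0.54 with SE 0.11, limma adjusted p = 0.00975). Its second probe set stood 0.06 higher on the log2 scale (limma adjusted p = 0.79), and the mean of the 2 did not pass (0.172), nor did the call hold with a constant variance prior (0.0528). Map2k1, which encodes the kinase MEK1, stood at 2576 ± 58.0 and 2646 ± 48.2 (SD, n = 3 cultures each).

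Of 13 tested upstream regulators of IGF and binding protein genes, 0 passed in limma, and 2 had an unadjusted p under 0.05. Of all 9864 tested genes 3142 had an unadjusted p under 0.05 in limma. Pth1r, the receptor of parathyroid hormone and an osteoblast marker, gave 2384, 2401 and 2437 without and 2329, 2314 and 2018 with AEBSF (log2 change -0.12 with SE 0.06, limma adjusted p = 0.25). Ghr, the growth hormone receptor, gave 259, 259 and 269 without and 271, 224 and 200 with AEBSF on its brighter probe set, and a second one, with a log2 change of -0.59, narrowly missed the threshold (SE 0.18, limma adjusted p = 0.0506). Ctcf, the insulator protein of the Igf2 and H19 locus, had a log2 fold change of 0.08 (SE 0.07).

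**Figure D3:**
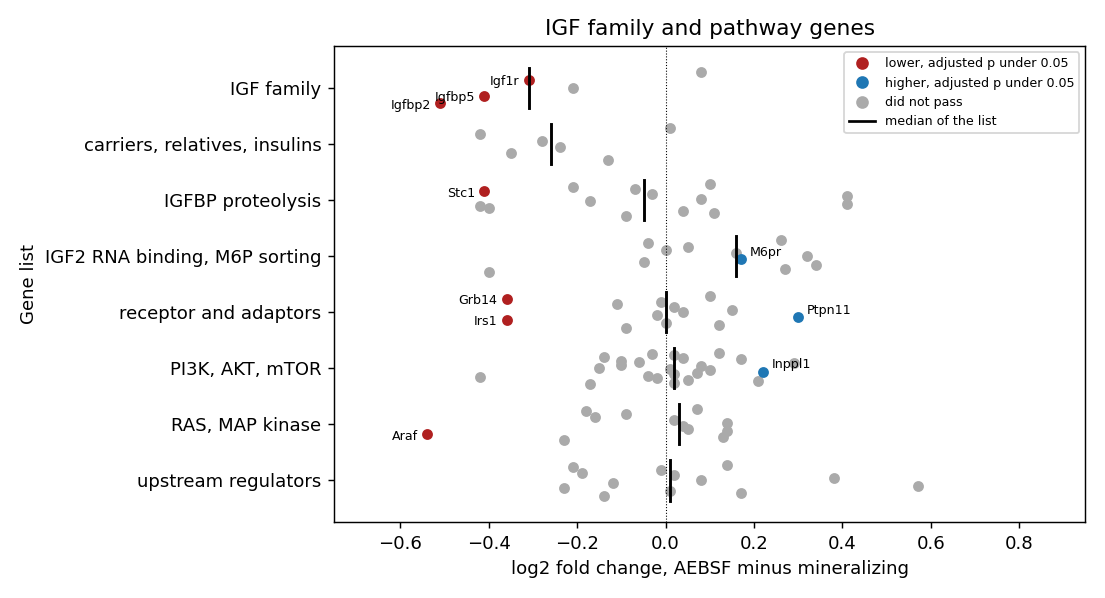
Log2 fold change (horizontal axis, AEBSF minus mineralizing) of each tested gene of the IGF family and of the 7 pathway lists (vertical axis), in red where lower and blue where higher at an adjusted p under 0.05, with a black bar at each list's median. The family's median lies at -0.31 and that of the carriers, relatives and insulins at -0.26. The list of IGF2 RNA binding and mannose 6-phosphate sorting has a median of 0.16, and that of IGFBP proteolysis one of -0.05. The receptor and adaptor, PI3-kinase, MAP kinase and upstream regulator lists have medians of -0.00, 0.02, 0.03 and 0.01.

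**Figure D4:**
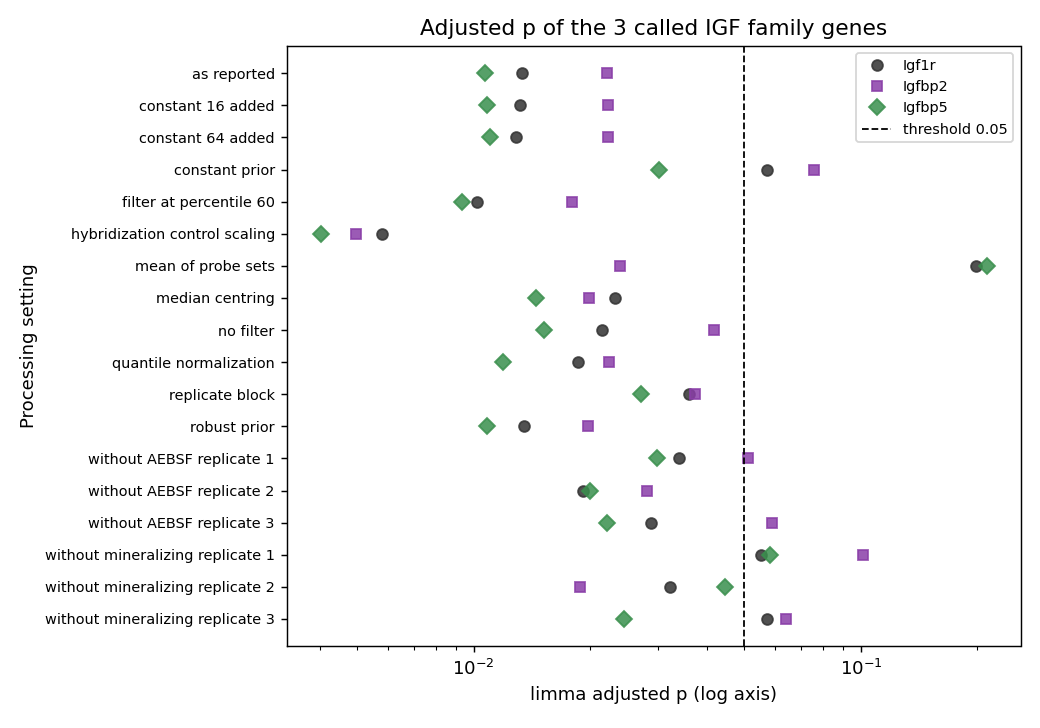
Limma adjusted p (horizontal log axis) of Igf1r, Igfbp2 and Igfbp5 in the values as reported and under each of the 17 other settings (vertical axis), with a dashed line at 0.05. Igf1r lies to the right of the line in 4 settings, Igfbp2 in 5 and Igfbp5 in 2, and all 3 do so without mineralizing culture 1.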

How the data were processed

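The authors deposited 1 intensity per probe set and array for 6 arrays, which the submitters' processing notes name as MAS5 signal from GCOS (versions not given in the sources used here). Trimmed by 2% at each end, the mean signal was 500.15 or 500.16 on each array, so the values were taken as already scaled. Groups come from the sample titles. Of 15 pairs of arrays none were copies (at most 2 equal values).

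Symbols came from the platform annotation, updated through Entrez identifiers to RefSeq. Log2 signals were tested in R 4.3.3 with limma 3.58.1 (variance prior following the mean signal) for AEBSF minus mineralizing, over the 18625 probe sets with a mean above the 40th percentile, with Benjamini-Hochberg adjustment over all of them. The probe set with the highest mean stood for a gene. The script was tested on simulated data: of 100 probe sets changed by 0.5 (log2), 45 were called, and 72 of 100 changed by 1. No others of the 18625 were changed there, whereas 2495 were called in the data, so these rates need not hold for the data. The 3 arrays per group limit the precision.

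Named are all members, up to 4 called genes of each pathway list by size of change (where fewer than 2 passed, the brightest up to 2 in all), 14 genes by name and the 3 genes most like the member with the largest fall; others were chosen after their values were seen. The members, lists and tests were chosen with earlier results of these data known. Alternatives were quantile normalization, median centring, scaling to hybridization controls, adding 16 or 64, no filter or one at the 60th percentile, constant and robust priors, averaged probe sets, a replicate block and leaving out each culture.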

Additional observations from a re-analysis of the deposited data

How the results depend on the processing

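The count of 2495 called probe sets was 885 with a constant variance prior, and between 1203 and 2257 when 1 culture was left out, the lowest without mineralizing culture 1. The family count of 3 was 1 with a constant prior and 1 with averaged probe sets, where Igf2 was not tested. It was between 0 and 3 when 1 culture was left out. The pathway count of 7 was 0 with a constant prior, 4 with no filter (0 higher), 13 with hybridization control scaling, and between 2 and 7 when 1 culture was left out. With the constant prior 16 pathway genes had an unadjusted p under 0.05 in limma, as did 4800 of all 18625 tested probe sets. The cause of these shifts was not tested. Igf1r, Igfbp2 and Igfbp5 were lower with AEBSF in each of the 17 alternatives, with log2 fold changes of -0.46 to -0.16, -0.66 to -0.40 and -0.55 to -0.35 and limma adjusted p of 0.00579 to 0.198, 0.00497 to 0.101 and 0.00403 to 0.212. Hybridization control scaling moved the median of all genes to -0.14, and under it 8 small positive changes turned negative: -0.07 for Igfbp4, Ctcf and Rheb, -0.09 for Igf2bp3, -0.10 for Akt1, -0.11 for Map2k1, -0.13 for Ccn4 and -0.14 for Foxo1. That shift is common to all genes and says nothing of these ones. Under the other settings changes near 0 turned sign in 16 cases, and no change that turned sign was called on either side. With averaged probe sets the log2 fold change was -0.01 for Akt1, -0.15 for Rheb, -0.19 for Foxo1 and 0.00 for Insr, and with quantile normalization -0.01 for Ccn4. When 1 culture was left out it ran from -0.04 to 0.17 for Igfbp4, -0.01 to 0.14 for Akt1, -0.00 to 0.04 for Ccn4, -0.05 to 0.09 for Foxo1, -0.01 to 0.10 for Igf2bp3 and -0.05 to 0.02 for Irs2. With the signal limit at the 60th percentile (241) or at the highest tissue-restricted signal (267), both chosen after seeing the data, 4 family genes in place of 5 were above it on all 6 arrays.

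The labels do not state whether same-numbered cultures were paired. Deviations from the group means of same-numbered cultures correlated at 0.0109, -0.119 and -0.0359 over the tested probe sets. Those of differently numbered cultures correlated at -0.0596 to 0.0895. With 3 arrays per group, whose deviations are tied to each other, these values cannot decide whether cultures were paired. With the replicate number as a block, 1802 probe sets, 3 family genes and 5 pathway genes (0 higher, 5 lower) passed, and the limma adjusted p of Igf1r, Igfbp2 and Igfbp5 was 0.0361, 0.0372 and 0.0271. That of M6pr, Ptpn11 and Inppl1, the 3 pathway genes that rose without the block, was 0.0831, 0.0537 and 0.0603. With 3 arrays per group and most family signals near the limit or below it, Igf1, Igf2r, Igfbp3 and Igfbp6 could not be tested above the limit. Tested with no filter, none of these 4 passed in limma (adjusted p = 0.238, 0.784, 0.834 and 0.659), and 1, Igf1, had an unadjusted p under 0.05 (0.0417). So did 5906 of all 31042 probe sets with no filter.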
